A study of Mus musculus with 8 samples.

Results

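The rows described here are the small nucleolar RNAs (snoRNAs) and small Cajal body RNAs (scaRNAs) of a mouse islet RNA-seq table, other than the RNAs that the knockout was built around. Members were chosen by symbol alone: every row whose name begins with Snord, Snora or Scarna, except Snord32a, Snord33, Snord34, Snord35a and Snord35b. This left 109 of 24469 rows, made up of 64 Snord (box C/D), 36 Snora (box H/ACA) and 9 Scarna rows, and 5 rows were left out. Total RNA came from islets picked by hand from 8-week-old mice, 4 of them wild-type C57BL/6 and 4 RpL13a snoRNA knockouts on the C57BL/6 background, with 1 library per mouse. In the knockouts the snoRNAs U32a, U33, U34 and U35a, which lie in introns of Rpl13a, are lost. The sources used here do not give the sex of the mice or say whether the knockouts descend from a single founder. The p-values below measure the spread between these 8 mice.

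Box C/D snoRNAs direct fibrillarin to methylate the 2′-oxygen of ribose, and box H/ACA snoRNAs guide pseudouridylation by dyskerin. Most target ribosomal RNA, whereas scaRNAs act in Cajal bodies on spliceosomal small nuclear RNAs. In mammals most of these RNAs are trimmed out of introns of host genes, many of which encode ribosomal proteins or other parts of the translation machinery. A count on such a row can therefore come from the finished RNA or from an unspliced host transcript, and the deposited counts do not tell these apart.

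The classes carry different letters at their ends, shown here for the most abundant members because the comparison of C/D with H/ACA rests on the names being right. Sequences are GENCODE M21 transcripts (build GRCm38), and capitals mark TGATGA near the 5′ end and CTGA near the 3′ end for the C/D type, or ACA near the 3′ end for the H/ACA type.
Snord17: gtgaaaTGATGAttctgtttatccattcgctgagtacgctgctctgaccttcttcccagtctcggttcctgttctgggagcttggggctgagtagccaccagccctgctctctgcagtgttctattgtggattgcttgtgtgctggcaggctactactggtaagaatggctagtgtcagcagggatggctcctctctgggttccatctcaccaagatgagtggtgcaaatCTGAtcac
Snord104: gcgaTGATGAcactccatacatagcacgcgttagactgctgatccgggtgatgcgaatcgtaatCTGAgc
Snora23: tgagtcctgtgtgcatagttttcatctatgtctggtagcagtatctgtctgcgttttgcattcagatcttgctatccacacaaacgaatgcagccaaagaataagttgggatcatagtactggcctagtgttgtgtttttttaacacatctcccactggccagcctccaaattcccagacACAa
Snora81: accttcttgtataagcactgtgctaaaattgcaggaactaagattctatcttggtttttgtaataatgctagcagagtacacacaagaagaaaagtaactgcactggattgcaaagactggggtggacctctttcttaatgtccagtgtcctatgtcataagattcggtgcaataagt
Scarna13: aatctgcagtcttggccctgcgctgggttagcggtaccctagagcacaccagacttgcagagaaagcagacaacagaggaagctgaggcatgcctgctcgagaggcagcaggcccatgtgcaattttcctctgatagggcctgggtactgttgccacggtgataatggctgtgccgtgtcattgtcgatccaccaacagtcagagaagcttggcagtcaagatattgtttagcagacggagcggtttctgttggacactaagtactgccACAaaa
Scarna6: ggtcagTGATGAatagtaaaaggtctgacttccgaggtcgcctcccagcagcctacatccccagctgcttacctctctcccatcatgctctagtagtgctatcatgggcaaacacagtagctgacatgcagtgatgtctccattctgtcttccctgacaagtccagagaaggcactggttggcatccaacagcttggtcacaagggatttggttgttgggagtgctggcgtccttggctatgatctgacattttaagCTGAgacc
Snord17 and Snord104 hold both C/D motifs, and Snora23 ends in an ACA followed by a single base. The GENCODE model of Snora81 has no ACA in its last 6 bases. Scarna13 (U93) carries the H/ACA letters, while Scarna6 (U88), known as a composite of both kinds, carries the C/D letters at its ends.

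Searched on the RNA strand only, TGATGA lay in the first 20 bases of 41 of the 63 Snord members with a sequence, CTGA in the last 15 bases of 56, and both in 39. None of the 36 Snora members held TGATGA there and 2 held CTGA, whereas 33 had ACA in the last 6 bases. Of the Snord members, 4 had ACA in that window. The 9 Scarna members were mixed, with 4 holding both C/D motifs and 4 holding ACA. A match is a description of letters, and a missing match says only that these letters are not in the window.

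The libraries held 21235163 to 41148282 counts assigned to genes. A count of 0 allows up to 3 counts, which corresponds to 0.0729 CPM (counts per 1000000 assigned counts) in the deepest library, wild type 1, and 0.141 CPM in the shallowest, knockout 1, for counting error only. Islet hormone and granule genes made up 9.09 to 24.4% of the counts and genes of pancreatic acinar cells 2.03 to 27.6%, while the ribosomal precursor row Rn45s took 36.7 to 41.3%. The acinar share was 26.2, 2.03, 14.3 and 4.93% in the wild types and 21.9, 5.28, 27.6 and 17.6% in the knockouts, so it varied within both genotypes. In such bulk samples fewer cells of a type and less RNA per cell cannot be told apart.

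The snoRNA and scaRNA rows together held 1192 counts, 667 in wild type and 525 in knockout, which was 0.000363 to 0.000661% of a library's assigned counts. Wild-type libraries 1 to 4 had 175, 161, 151 and 180 of these counts, and knockout libraries 1 to 4 had 77, 154, 123 and 171. In CPM this was 4.25, 6.48, 5.13 and 6.18 in wild type and 3.63, 6.61, 3.81 and 6.10 in knockout. The genotypes overlapped, with 5.51 ± 1.02 against 5.04 ± 1.54 (mean ± SD, n = 4 each). The lowest values, from knockout 1, knockout 3 and wild type 1, came from the libraries with the highest acinar shares. With acinar genes, Rn45s, Lars2 and Mir6236 left out of the denominator, the 8 values lay between 11.6 and 15.2. Scaled to the effective library sizes from trimmed mean of M-values (TMM) normalization, the summed CPM values were 5.71, 4.85, 5.22 and 5.04 in wild type and 4.53, 5.02, 5.43 and 5.49 in knockout, which also overlapped.

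At least 1 count in any library was found for 71 of the 109 members (65.1%), against 82.2% of all rows. The other 38 were at 0 in all 8 libraries after rounding, which allows up to 0.0131 CPM over the series. Of these, Snora24, Snora26 and Snord45c held small deposited fractions in 2 libraries each, which were rounded to 0. Only 10 members had a count in every library, 32 had a count in at least 4, and 19 rested on a single count. Each genotype detected 58 members, 45 of them shared, with 13 detected in wild type alone and 13 in knockout alone. No member seen in 1 genotype alone had more than 3 counts, so none of these absences can be read as a loss: 0 counts allow 0.0241 CPM over the 4 wild-type libraries and 0.0286 CPM over the 4 knockout libraries. The number of members with a count was 41, 33, 32 and 31 in the wild types and 24, 38, 29 and 36 in the knockouts. The lowest number came from knockout 1, the shallowest library, and the highest from wild type 1, the deepest. When each library was thinned to the depth of knockout 1, the expected numbers were 29.3, 31.0, 27.9 and 27.3 in wild type and 24.0, 36.4, 23.8 and 32.8 in knockout.

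Box H/ACA rows were detected more often than box C/D rows. A count was found for 27 of 36 Snora members (75.0%), 36 of 64 Snord members (56.25%) and 8 of 9 Scarna members (88.9%). Within single libraries the share of Snora rows with a count was 47.2, 38.9, 30.6 and 27.8% in the wild types and 22.2, 44.4, 33.3 and 38.9% in the knockouts. For Snord rows it was 29.7, 23.4, 25.0 and 23.4% in the wild types and 17.2, 26.6, 18.8 and 25.0% in the knockouts. The Snora share was higher than the Snord share of the same library in 8 of 8 libraries, by 4.34 to 17.9 percentage points.

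Length differed between the classes in the same direction. By GENCODE, Snord members had a median length of 78 bases (64 to 238), Snora members 132 bases (121 to 196) and Scarna members 140 bases (70 to 414). The RefSeq medians were 68, 119.5 and 118 bases. At the GENCODE medians the 3 counts that a 0 allows over all libraries correspond to 0.168 CPM per kilobase for a Snord row. For a Snora row they correspond to 0.0991 CPM per kilobase, so the detection limit per length was higher for box C/D. Detected members had a median length of 128 bases and undetected members 87 bases, but within a class the medians were close: 76 against 80 bases for Snord and 132 against 131 bases for Snora.

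From 110 to under 150 bases 6 of 7 Snord members and 24 of 33 Snora members had a count. These Snord members (Snord15a, Snord15b, Snord22, Snord67, Snord8, Snord89 and Snord90) had a median of 7 counts and at most 15, and the Snora members a median of 1 and at most 41. The lengths were not matched within this range, since 4 of the 7 Snord rows were shorter than the shortest Snora row (121 bases). Among those of 121 bases or more, the 3 Snord rows Snord15a, Snord15b and Snord22 all had a count, as did 24 of 33 Snora rows, and 3 rows are too few to compare the classes. Below 80 bases 20 of 33 Snord members were detected and from 80 to 109 bases 9 of 22. All 8 members of 150 bases or more were detected, and they held 689 of the 1192 counts: Scarna10, Scarna13, Scarna2, Scarna6, Snora23, Snora74a, Snora81 and Snord17. RefSeq gives 71 bases for Scarna10, 61 for Scarna2 and 68 for Snord90, so these ranges depend on the annotation.

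**Figure D1:**
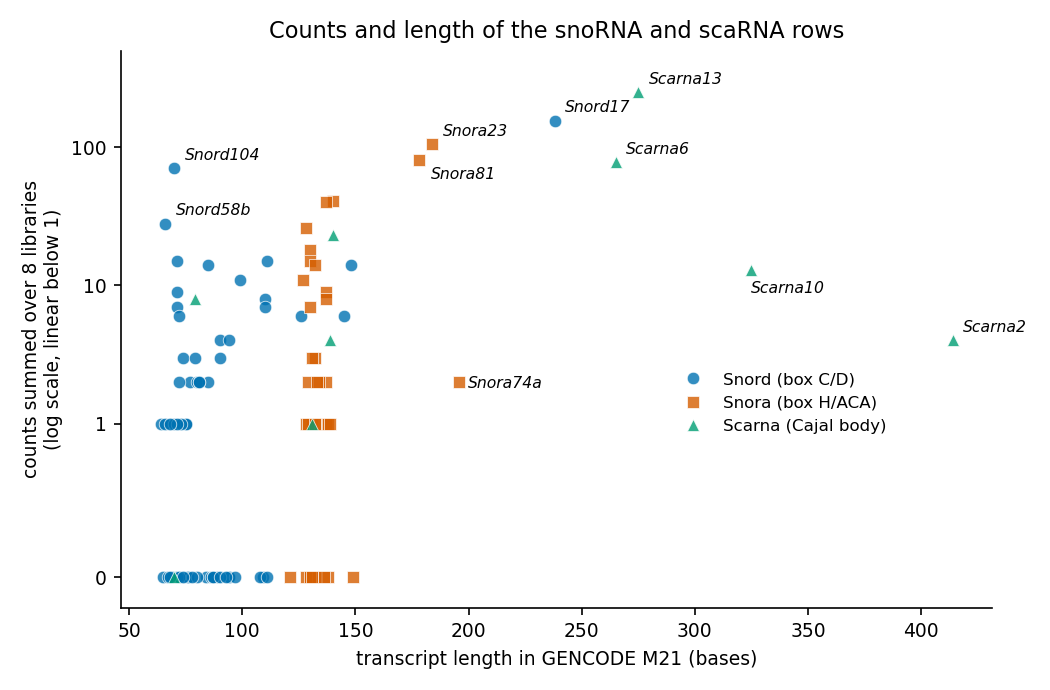
Summed counts of each of the members over 8 libraries (vertical axis, logarithmic above 1 and linear below) against the GENCODE length of the RNA in bases (horizontal axis, linear), with 1 point per member and colours for the Snord, Snora and Scarna rows. Counts are low at every length, and the 5 members with the most counts are all longer than 150 bases.

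Per length, the 2 main classes held similar amounts, and Scarna rows more. Summed over the series, there were 412 Snord counts (7.58 per 100 bases of annotated RNA), 399 Snora counts (8.07 per 100 bases) and 381 Scarna counts (20.7 per 100 bases). By RefSeq lengths these values were 8.86, 9.15 and 34.0 per 100 bases. The Snora to Snord ratio of CPM per kilobase, by GENCODE lengths, was 1.07 over all libraries. By library it was 1.13, 1.21, 0.706 and 1.12 in the wild types and 0.864, 1.14, 1.02 and 1.31 in the knockouts, which lies on both sides of 1 within each genotype (1.04 ± 0.227 and 1.08 ± 0.189, SD, n = 4 each). The Scarna to Snord ratio was 1.81 to 3.71 by library.

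Single members carried much of each class. Snord17 held 156 counts, 37.9% of the Snord sum, Snora23 held 105 counts (26.3% of the Snora sum) and Scarna13 held 250 counts (65.6% of the Scarna sum). Without these, the amounts were 4.92, 6.18 and 8.38 counts per 100 bases for Snord, Snora and Scarna. The Snora to Snord ratio then became 1.25 over all libraries and 1.04 to 1.46 by library. The median member had 1 count among Snord, 2 among Snora and 8 among Scarna rows.

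**Figure D2:**
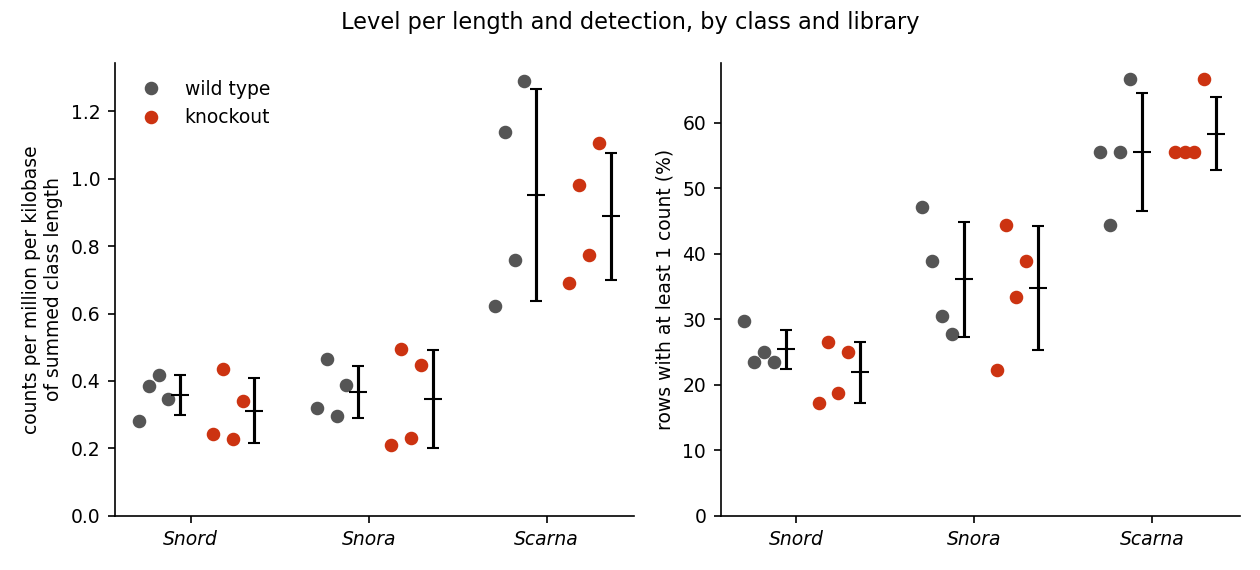
The left panel shows CPM per kilobase of summed class length, and the right panel the percentage of rows with at least 1 count, for the Snord, Snora and Scarna rows, with 1 point per library and bars for mean ± SD of each genotype (n = 4). The genotypes overlap in each class in both panels. In the right panel the Snora rows lie above the Snord rows of the same library throughout. In the left panel the Snora to Snord ratio runs from 0.706 to 1.31 by library.

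The class sums did not separate the genotypes. Snord rows summed to 1.95 ± 0.319 CPM in wild type and 1.69 ± 0.522 in knockout, Snora rows to 1.81 ± 0.375 and 1.71 ± 0.722, and Scarna rows to 1.75 ± 0.577 and 1.63 ± 0.348 (mean ± SD, n = 4 each). The log2 ratios of knockout over wild type were -0.20 for Snord, -0.086 for Snora and -0.099 for Scarna, against spreads between libraries (SD, log2) of 0.35, 0.50 and 0.41. These signs rested on the top members, since without Snord17, Snora23 and Scarna13 the ratios were 0.0056, 0.033 and 0.28. They also depended on the denominator: with acinar genes, Rn45s, Lars2 and Mir6236 left out of it, the ratios were 0.0091, 0.10 and 0.20.

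Only 5 members passed the filter on low counts, 4.59% of the 109, whereas 13617 of the 24469 rows of the table passed. They were Snord17, Snora23, Snora81, Scarna13 and Scarna6, and the counts of every other member were too low for the fit. None of the 5 differed between the genotypes past a Benjamini-Hochberg adjusted 0.05 threshold with edgeR's quasi-likelihood method, where 2 of all 13617 rows did (0.0147%). Unadjusted p-values under 0.05 were reached by 0 of the 5 and by 2545 of all rows (18.7%). DESeq2 and limma-voom also called 0 of the 5, with DESeq2 giving these low rows no adjusted p. The standard errors of the 5 log2 fold changes were 0.27 to 0.51, against a median of 0.17 over all rows tested, so changes of the size that could be resolved for a typical gene were not detectable here.

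Snord17, the longest Snord member and the one with the most counts, is encoded in an intron of Snx5, a sorting nexin gene. It had 25, 19, 29 and 26 counts in the wild types and 7, 22, 12 and 16 in the knockouts. Knockout 2 lay among the wild types, so the genotypes overlapped. With TMM scaling the wild types averaged 0.779 ± 0.179 CPM and the knockouts 0.543 ± 0.127 CPM (SD, n = 4 each). The log2 fold change of -0.49 ± 0.30 (SE) was the largest in size among the 5, with an edgeR adjusted p of 0.383, and it was negative in each fit that left out a library.

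Snora23 lies in an intron of Ipo7, an importin gene. Its counts were 24, 13, 7 and 21 in wild type and 1, 17, 7 and 15 in knockout. The wild types ran from 7 to 24 and the knockouts from 1 to 17, with the lowest value in knockout 1, the shallowest library. With TMM scaling knockout 1 was still the lowest, at 0.0588 CPM, and wild type 3 the next, at 0.242 CPM. The annotation places 1600010M07Rik on the opposite strand here, so without a known strand setting this row is uncertain. The log2 fold change was -0.42 ± 0.51 (SE) with an edgeR adjusted p of 0.675.

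Snora81 lies in Eif4a2, which encodes a translation initiation helicase. It had 8, 12, 13 and 10 counts in wild type and 8, 9, 13 and 8 in knockout, so both genotypes ran from 8 to 13. Knockout over wild type was 0.20 ± 0.40 (log2, SE), with an adjusted p of 0.807 from edgeR. This row is uncertain, because every 30-base stretch of the RNA (100%) also occurs in annotated transcripts of Eif4a2, Gm47309 or Gm49346. Of these stretches, 63.1% occur in the small RNA models Gm22519 or Gm22588.

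Scarna13 (U93), a guide of the H/ACA type, was the most abundant member by count. It had 30, 33, 34 and 48 counts in wild type and 16, 22, 33 and 34 in knockout. The genotypes overlapped at 1.12 ± 0.173 against 1.05 ± 0.311 TMM-scaled CPM (SD, n = 4 each), and the log2 fold change was -0.10 ± 0.27 with its SE (adjusted p = 0.859 from edgeR). Without wild type 4 or without knockout 2 its sign turned, to 0.00034 and 0.056.

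Scarna6 (U88) had 13, 10, 3 and 13 counts in wild type and 6, 13, 8 and 12 in knockout. In counts the wild types spanned the whole range of the knockouts, and the log2 fold change was 0.34 ± 0.42 with its SE (adjusted p = 0.684 from edgeR). Across the 5 tested members the median log2 fold change was -0.10, and over all rows tested it was 0.0098.

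**Figure D3:**
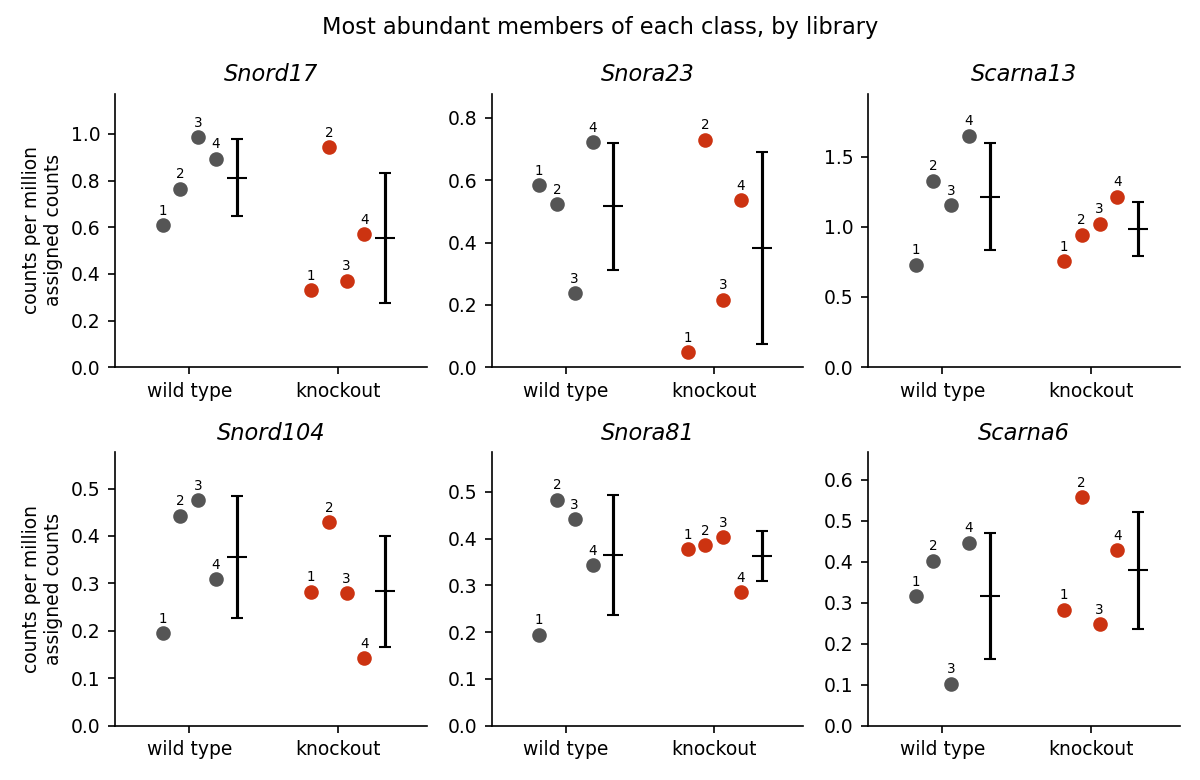
CPM of assigned counts (vertical axis, from 0) for Snord17, Snord104, Snora23, Snora81, Scarna13 and Scarna6 in each library, with numbered points for the mice and bars for mean ± SD of each genotype (n = 4). The genotypes overlap for each of the 6, and for Snord17 knockout 2 lies among the wild types.

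With no filter, 71 members could be fitted and 0 passed the adjusted threshold of 0.05, against 3 of 20118 rows (0.0149%). No member reached an unadjusted p under 0.05, against 14.2% of those rows. The smallest p was 0.0839, for Snord4a (edgeR adjusted p = 0.400), a C/D snoRNA of Rpl23a named here after its values were seen. It had 0, 1, 0 and 1 counts in wild type and 1, 3, 1 and 2 in knockout, 9 in all. Tlcd1 lies on the opposite strand there, so without a known strand setting the Snord4a row is uncertain. Of the 21 members with at least 10 counts, the genotypes overlapped in CPM for every one. Over all rows with at least 10 counts 1.23% did not overlap, and over the 4921 rows between 10 counts and the 250 of Scarna13 it was 2.05%. By TMM-scaled CPM the genotypes overlapped for all 5 members in the fit, while 8.34% of the 13617 rows did not overlap.

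Per length, the order among box C/D members changed. Snord104, only 70 bases long, had the highest pooled level of all members at 4.42 CPM per kilobase, above Scarna13 at 3.96 and Snord17 at 2.86. Its counts were 8, 11, 14 and 9 in wild type and 6, 10, 9 and 4 in knockout, and the genotypes overlapped from 8 to 10. Snord58b, in Rpl17, followed with 1.85 CPM per kilobase and 5, 2, 3 and 2 counts in wild type against 3, 2, 6 and 5 in knockout. Of its 30-base stretches 70.3% are shared with another small RNA, so its reads may be split.

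The other C/D members named by abundance were thinner. Snord61, in Rbmx, had 2, 5, 1 and 2 counts in wild type and 2, 1, 2 and 0 in knockout. Snord67, in Ckap5, had 1, 1, 1 and 3 against 0, 2, 2 and 5. Both overlapped between genotypes with 15 counts in total. Snord15a of Rps3 and Snord92 of Wdr43 had 14 counts each, and Snord16a of Rpl4 had 11. With so few counts, a difference between genotypes was not detectable for these rows. Every 30-base stretch of Snord16a (100%) also occurs in annotated transcripts of Rpl4. Of the stretches of Snord67, 78.0% occur in annotated transcripts of Ckap5. The counts of Snord16a and Snord67 are therefore uncertain.

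Among the box H/ACA members, Snora7a of Rpl32 had 8, 7, 4 and 6 counts in wild type and 3, 7, 1 and 5 in knockout. Snora52 of Rplp2 had 3, 8, 2 and 5 in wild type and 3, 3, 2 and 14 in knockout, its highest value coming from knockout 4. Their pooled levels were 1.28 and 1.27 CPM per kilobase, below Snora23 at 2.49 and Snora81 at 1.98. Every 30-base stretch of Snora7a and of Snora52 (100%) also occurs in annotated longer transcripts, which makes their counts uncertain too. Snora78 of Snhg9 had 26 counts, Snora31 of Tpt1 had 18, Snora30 of Srcap had 15 and Snora17 had 14, with the genotypes overlapping for each. Of the 30-base stretches of Snora30, 53.5% also occur in the small RNA model Gm25133, so its reads may be split. Snora78 lies opposite Rps2, a ribosomal protein gene, from which its reads cannot be told apart without strand.

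Among scaRNAs, Scarna3a had 2, 6, 2 and 1 counts in wild type and 0, 5, 3 and 4 in knockout. Scarna10 (U85), a composite RNA of both kinds, had 0, 3, 0 and 3 counts in wild type and 3, 1, 0 and 3 in knockout. Both overlapped between genotypes. Scarna17 had 8 counts, Scarna2 and Scarna3b had 4 each, and Scarna8 had 1, while Scarna9 was at 0 in all 8 libraries. Of the 30-base stretches of Scarna10, 85.8% also occur in annotated transcripts of Ncapd2 or Gm28967, so its counts are uncertain. Of those of Scarna17, 82.0% occur in the small RNA model Gm25443, so its reads may be split. Scarna3a and Scarna3b are a related pair, shown with their longest common run in capitals.
Scarna3a: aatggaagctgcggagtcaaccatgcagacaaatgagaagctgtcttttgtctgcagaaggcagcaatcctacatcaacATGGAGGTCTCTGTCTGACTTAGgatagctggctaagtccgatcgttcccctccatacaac
Scarna3b: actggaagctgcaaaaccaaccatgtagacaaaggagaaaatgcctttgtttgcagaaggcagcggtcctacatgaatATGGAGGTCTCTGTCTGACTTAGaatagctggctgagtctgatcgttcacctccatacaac
The 2 RNAs, of 140 and 139 bases, were identical at 120 of 140 aligned positions (85.7%), and the common run was 23 bases long. The authors' estimated counts held fractions far below 1 for Scarna3b in 4 libraries, which were rounded to 0. No 30-base stretch of Scarna3a or of Scarna3b (0.0%) occurs in another annotated small RNA. Of the stretches of Scarna3b, 87.3% occur in annotated transcripts of CT030161.1 or Mir1843a. For Scarna3a, 32.4% occur in Mir1843b. The counts of Scarna3b are therefore uncertain, and the source of its fractions was not tested.

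Detected Snora and Snord members had hosts with higher median levels than undetected ones, while the ratio of host to member counts differed widely. The median host level was 42.0 CPM for detected and 4.26 CPM for undetected Snora members, 23.0 and 18.4 CPM for Snord members, and 23.0 and 14.3 CPM over all classes. A host with a row in the table was found for 99 members, in 75 host genes. Counts were not scaled to length, and for a member at 0 any count on the host is more. The host had more counts than the member in 99 of 99 cases, and 63 of these members had a count. Among the 19 of these members with at least 10 counts, the host counts per member count ran from 1.16 for Scarna13 in the long noncoding host Snhg10, through 24.9 for Snord17 in Snx5, 27.4 for Scarna6 in Atg16l1, 40.0 for Snora23 in Ipo7 and 155 for Snora81 in Eif4a2, to 9229 for Snord16a in Rpl4. Snora78 in Snhg9 also stood at the low end with 6.62. The ratios of Snora81 and Snord16a are uncertain, because every 30-base stretch of both RNAs (100%) also occurs in annotated longer transcripts. Over all members with a count the highest ratio was 86858, for the single count of Snord37 in Eef2. Both hosts at the low end are noncoding snoRNA host genes, here at 1.27 CPM for Snhg10.

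At the same time, 3 members were at 0 although their hosts exceeded 100 CPM. These were Snord73a in Rps3a1 (161.6 CPM), Snora19 in Eif3a (158 CPM) and Snora62, also known as E2, in Rpsa (156 CPM). Every 30-base stretch of Snora19 (100%) also occurs in the small RNA model Gm23658, so its 0 is uncertain. Members of hosts with low levels at 0 included Snora35, in an intron of the serotonin receptor gene Htr2c (0.00436 CPM), and the brain-enriched Snord116l1 and Snord116l2 of Snhg14 (0.545 CPM). All 30-base stretches of both Snord116 rows (100%) are shared with other copies, so reads could have been assigned elsewhere and their 0 is uncertain.

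**Figure D4:**
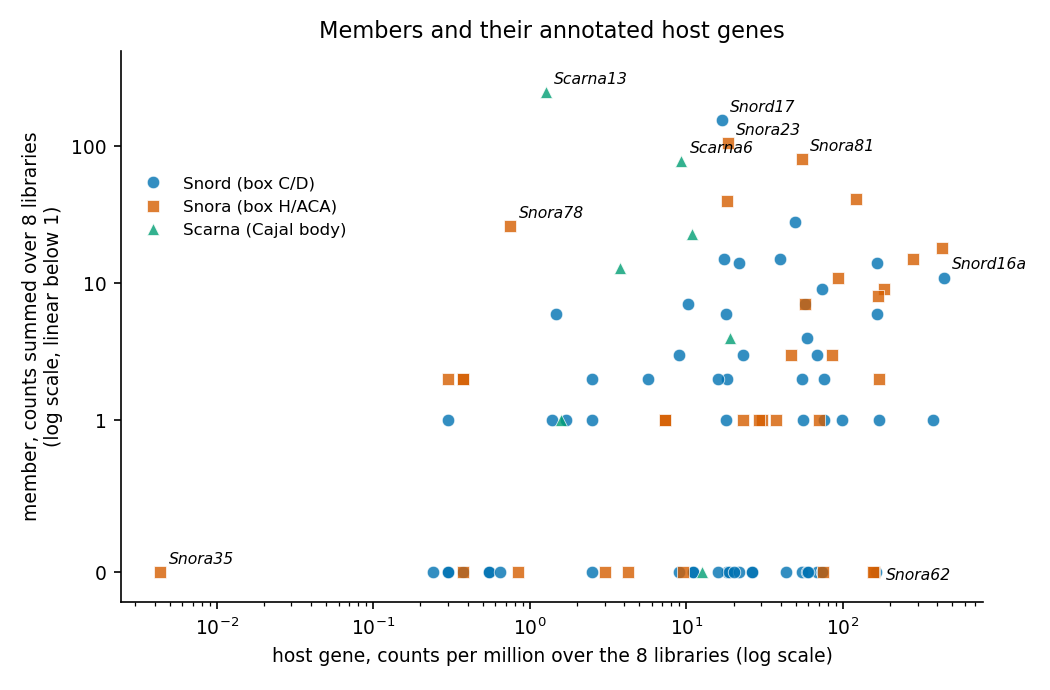
Summed counts of each member over 8 libraries (vertical axis, logarithmic above 1 and linear below) against the level of its host gene in CPM (horizontal axis, logarithmic), with 1 point per member that has a host row in the table and colours for the classes. Members at 0 appear at host levels from 0.00436 CPM (Snora35 in Htr2c) to 161.6 CPM (Snord73a in Rps3a1), and all 10 members with a host above that level had a count.

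Members of the same host also differed. In Eif4a2, Snora81 had 81 counts and Snord2 had 0, and in Wdr43, Snord92 had 14 and Snord53 had 0. In Rpl23a, Snord4a had 9 counts while Snord42a and Snord42b had 0, and in Rps3, Snord15a had 14 and Snord15b had 6. In all, 19 hosts held 43 members. Snord members that overlap a host exon in the annotation were detected in 14 of 27 cases and those that do not in 21 of 35, and for Snora members this was 15 of 20 and 10 of 14, so the overlap did not separate detected from undetected rows.

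Of the 72 host genes that passed the filter, 0 were called (against 0.0147% of all rows) and 7 had an unadjusted p under 0.05 (9.72%, against 18.7% of all rows). Their median log2 fold change was 0.16, with 53 positive and 19 negative values, against a median of 0.0098 over all rows. With no factor for library composition the split was 44 to 28, and the host median was 0.060 against -0.11 over all rows. The hosts of the 5 tested members had log2 fold changes of 0.13 ± 0.12 (SE) for Snx5, 0.29 ± 0.15 for Ipo7, 0.30 ± 0.10 for Eif4a2, 0.35 ± 0.27 for Snhg10 and 0.033 ± 0.10 for Atg16l1. For Snord17, Snora23 and Scarna13 the member's value was negative and the host's positive, and neither passed the edgeR test.

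Of the genes for the proteins that build these particles, none passed the edgeR test in any list. In the C/D core list (Nop56, Nop58, fibrillarin and the 15.5K protein) 0 of 4 passed, with a median log2 fold change of 0.10. The smallest p-values there belonged to Nhp2l1, the 15.5K protein, whose CPM averaged 14.8 ± 0.590 in the wild types and 13.0 ± 1.16 in the knockouts (-0.19 ± 0.098 on the log2 scale with its SE, edgeR adjusted p = 0.303) and Nop58 (0.21 ± 0.14, adjusted p = 0.430). In the H/ACA core list (dyskerin, Nhp2, Nop10 and Gar1) 0 of 4 passed, with a median of 0.17. Nop10 averaged 4.92 ± 1.21 CPM in the wild types and 6.15 ± 0.434 in the knockouts (0.33 ± 0.17, edgeR adjusted p = 0.324), and Gar1 differed by 0.26 ± 0.25 on the same scale (edgeR adjusted p = 0.575).

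Of 15 genes for assembly and maturation factors, 14 were tested and 0 passed, with a median log2 fold change of 0.055. Tgs1, the enzyme that trimethylates the caps of small RNAs, averaged 8.09 ± 0.307 CPM in the wild types and 9.67 ± 0.986 in the knockouts (edgeR adjusted p = 0.242). Nufip1, an assembly factor of C/D particles, stood at 2.92 ± 0.774 and 3.96 ± 0.342 CPM (edgeR adjusted p = 0.255). Both had an unadjusted p under 0.05, as 18.7% of all rows did. The 27 tested acinar genes all stood higher in knockout by fitted value, by a median of 0.52 (log2), with 0 called, and their part in the values for these protein genes was not tested.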

How the data were processed

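Islet total RNA from 8 mice was made into SeqPlex libraries, per the labels' protocols. Per the submitters' processing notes, STAR 2.4.1, Partek and build mm9 were used; the strand setting and the annotation release were not given in the sources used here. Deposited by the authors were estimated counts per gene, with fractions where reads were split (rounded here to whole counts), and a table of RPM values, used to read the authors' library totals and as an alternative for the class sums. Genotypes were compared with edgeR 4.0.16 in R 4.3.3 (TMM, filterByExpr, robust quasi-likelihood test, Benjamini-Hochberg adjustment over all 13617 rows kept), with DESeq2 1.42.0 and limma 3.58.1 as alternatives, and the fit was tested on simulated data. CPM divides by the assigned counts of a library, 21235163 to 41148282, and intervals for a 0 cover counting error only. Lengths, hosts and sequences came from GENCODE M21 (GRCm38), matched by symbol, and no coordinates were carried to mm9. RefSeq lengths, where given, were an alternative. A host is the gene on the same strand whose span holds the RNA. Members named are those kept by the filter, the 8 largest sums per class, members with at least 10 counts whose genotypes do not overlap, and, per protein list, those called or the 2 of smallest p. The members and lists were chosen with earlier results of these data known. The replicate numbers were not taken to pair mice.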

Additional observations from a re-analysis of the deposited data

Results flagged for a closer look

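The number of Scarna rows with a count was the same, 5, in 3 knockout libraries and 6 in knockout 4. That 1 library stood apart from equal values and so met the test for an outlying sample, with a gap divided by range of 1.0. The critical value, which chance passes in about 1 in 20 groups, is made for continuous values. How often small whole numbers with ties pass it was not measured.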

How the results depend on the processing

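No member passed an adjusted p of 0.05 in any setting tried: 0 with other size factors, other filters, DESeq2, limma-voom, the acinar share as a covariate or any library left out. DESeq2 gave the 5 members no adjusted p, so it could call none of them. The filter of at least 1 CPM in at least 4 libraries left 1 member to test. Over all rows the calls went from 2 to 1313 without wild type 1, 526 with DESeq2, 48 with no composition factor (where the median log2 fold change of all rows was -0.11 in place of 0.0098) and 5 without knockout 4. Asking for a count in at least 4 libraries left 15 Snord, 12 Snora and 5 Scarna rows detected, and asking for 3 counts in a library left 13, 11 and 5. With any deposited value above 0 taken as detected, before rounding, there were 37 Snord, 29 Snora and 8 Scarna rows. Leaving out a library gave 33 to 36 Snord, 25 to 27 Snora and 7 to 8 Scarna rows. Without the top 2 members of each class the Snora to Snord ratio was 1.29, and without each library in turn 1.03 to 1.14. These ratios and the sums without acinar genes were chosen after seeing the data.

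With a library left out, log2 fold changes ranged from -0.31 to 0.056 for Scarna13, -0.050 (without knockout 3) to 0.38 for Snora81, 0.060 to 0.52 for Scarna6, -0.70 to -0.15 for Snora23 and -0.66 to -0.37 for Snord17. The log2 ratio of the class sums ranged from -0.40 to -0.078 for Snord, -0.31 to 0.092 for Snora, -0.26 to 0.082 for Scarna and -0.29 to -0.0014 for all members. With the replicate number as a block, 0 members and 2 of 13617 rows were called, and Snord17 was at -0.48, Snora23 at -0.41, Snora81 at 0.18, Scarna13 at -0.13 and Scarna6 at 0.40. Deviations of same-numbered mice correlated at 0.038, 0.21, 0.16 and 0.15. Wild types 2, 3 and 4 correlated best with the knockout of their own number and wild type 1 with knockout 3 (0.29), a hint of pairing from the data that the labels do not state, and with 1 value under 0.1 the numbers were not used to pair mice. Depth limits most of these rows: 50 of the 71 detected had fewer than 10 counts.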
